A study of Mus musculus with 9 samples.

Results

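The FAT, Dachsous and CELSR cadherins and the protocadherins are cell surface proteins built from chains of cadherin repeats. The 9 genes described here are Fat1, Fat3, Fat4, Dchs1, Celsr1, Celsr2, Pcdh1, Pcdh12 and Pcdh17, taken by symbol from a deposited table of 52636 genes. They were chosen by the fold change between the 2 groups of the study, since Fat3 was among the largest rises. Their values in that comparison are therefore given as a description, without a p-value, and support nothing by themselves.

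The libraries hold RNA of mouse liver endothelium, in 4 control libraries with the genotype Wild Type and 5 libraries with the genotype Erg and Fli1 double knockout. Erg and Fli1 are ETS transcription factors of endothelium and blood. The labels state that deletion was induced by tamoxifen and that cells were taken at day 7, without naming the Cre line or its promoter, the deleted exons, or whether control mice carried floxed alleles. The cells were sorted alive by flow cytometry as CD45-negative and positive for CD31 and for a VE-cadherin antibody injected beforehand, and nothing says that each library came from its own animal.

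Classical cadherins hold neighbouring cells together through catenins, whereas the proteins described here mostly carry signals about position and polarity. Fat4 binds Dchs1 on the neighbouring cell, a ligand and receptor pair of planar polarity that in mammals shapes kidney tubules and the lymphatic vessels. Celsr proteins are multi-pass receptors of the core planar polarity pathway, and protocadherins of the non-clustered kind, such as the endothelial Pcdh12, mediate weaker and more selective contacts.

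Because both targeted factors are ETS proteins, which bind DNA around a GGAA core, the promoter sequence is shown for the 3 genes in which the differences described below are plainest and for which a promoter sequence was at hand. RefSeq start sites of GRCm38.p6 were matched by symbol for 5 of the 9 genes, and the 250 bases upstream of each start are printed 5′ to 3′ on the gene's own strand, with every GGAA or its reverse complement TTCC in capitals. The Fat3 stretch is chr9:16502055-16502304 on the minus strand, that of Fat4 is chr3:38886690-38886939 on the plus strand, and that of Pcdh17 is chr14:84443313-84443562 on the plus strand. The windows of Fat4 and Pcdh17 adjoin the annotated genes whose coordinates are given below. The RefSeq start of Fat3, at 16502054, lies outside the annotated gene, which ends at 16501285, so its window does not adjoin that gene.
Fat3: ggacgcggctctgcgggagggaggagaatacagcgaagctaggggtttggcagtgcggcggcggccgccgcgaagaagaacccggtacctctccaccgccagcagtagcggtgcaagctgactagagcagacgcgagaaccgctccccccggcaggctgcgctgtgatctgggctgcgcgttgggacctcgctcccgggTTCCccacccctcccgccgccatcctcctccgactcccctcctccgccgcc
Fat4: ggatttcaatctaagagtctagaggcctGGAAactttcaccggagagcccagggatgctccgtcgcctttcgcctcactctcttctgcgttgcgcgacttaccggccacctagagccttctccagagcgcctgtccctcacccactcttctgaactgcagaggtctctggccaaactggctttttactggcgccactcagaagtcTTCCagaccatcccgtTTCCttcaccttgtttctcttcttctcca
Pcdh17: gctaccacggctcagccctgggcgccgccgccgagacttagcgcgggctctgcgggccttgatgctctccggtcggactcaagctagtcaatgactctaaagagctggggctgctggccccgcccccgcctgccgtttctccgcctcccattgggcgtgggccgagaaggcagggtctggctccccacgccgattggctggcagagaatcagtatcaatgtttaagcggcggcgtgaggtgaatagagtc
The core occurred 1 time upstream of Fat3, 3 times upstream of Fat4 and 0 times upstream of Pcdh17, counted on both strands. Over 32851 promoter windows of the same length the median was 3 matches and 93.4% had at least 1, so these letters are common. A longer form that contains the core, CCGGAA, was in 12% of all windows. The form CAGGAA, likewise overlapping the core, was in 25.7%. The 8-letter form CCGGAAGT was in 2.88%, and each of the 3 longer forms had 0 matches in the windows of these genes. The stretches upstream of Fat3 and Pcdh17 were 70.4% and 64.8% G or C, against 54.8% for Fat4 and a median of 52.4% over all windows. These matches describe letters in a short window and show nothing about binding.

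Libraries held between 26791371 and 36401682 counts, so that 1 count was worth between 0.0275 and 0.0373 CPM (counts scaled to the library total) before scaling. Values below are CPM after TMM scaling, as mean ± SD, with n = 4 controls and n = 5 libraries labelled knockout. Erg was at 312 ± 17.8 CPM in controls and 143 ± 10.9 CPM in the libraries labelled knockout, while Fli1 was higher in the latter (147 ± 22.5 against 100.1 ± 8.01 CPM), so the label is used throughout as a label. Endothelial markers summed to between 10043 and 11349 CPM in controls and between 8141 and 10785 CPM in the others. Of these 7 genes 2 were lower at an edgeR adjusted p under 0.05, the threshold for each count of markers here. Sinusoidal markers summed to between 22093 and 23392 and between 9049 and 15206 CPM, with 3 of 6 lower. Among markers of other cells, 3 of 3 tested neutrophil genes and 4 of 5 platelet genes were higher in the libraries labelled knockout, with sums of 6.58 to 21.3 against 0.410 to 4.25 CPM and of 63.4 to 136 against 22.6 to 36.5 CPM. Over all tested genes 14.5% were higher and 14.8% lower. The marker lists not named above changed in at most 1 gene, and the part of any of these cells in the results below was not tested. In RNA from sorted cells in bulk, fewer cells of a type and less RNA per cell cannot be told apart. Among the libraries labelled knockout, replicates 2 and 3 were set apart from the other 3 on the second principal component of all genes, and replicate 3 held both 26914 Xist and 178 Ddx3y counts.

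Of the 9 genes, 8 passed the filter on low counts and Celsr1 did not. In edgeR's quasi-likelihood fit over 14583 genes, 5 of the 8 passed an adjusted p of 0.05, 2 of them higher (Fat3 and Pcdh17) and 3 lower (Fat4, Dchs1 and Pcdh1) in the libraries labelled knockout. Over all tested genes 29.3% passed, 14.5% higher and 14.8% lower. All libraries of one group lay above all of the other for 5 of the 8, namely Fat3, Fat4, Dchs1, Pcdh12 and Pcdh17, against 27% of all tested genes. Since this comparison chose the genes, nothing is read from either count. The median log2 fold change of the 8 was -0.59, beside 0.01 over all tested genes. With replicates 2 and 3 (labelled knockout) left out, the same numbers passed, 2 higher and 3 lower.

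**Figure D1:**
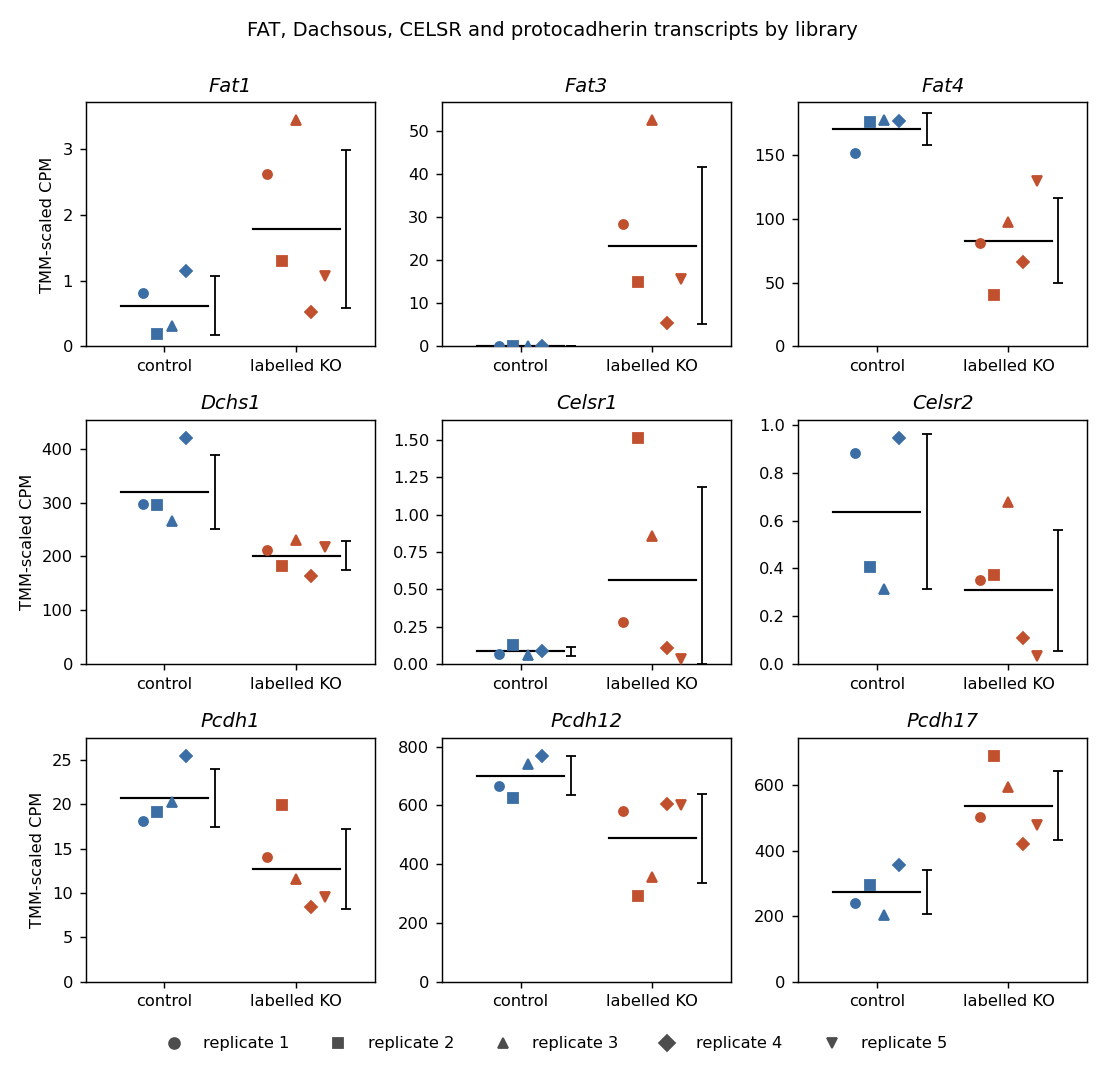
Each panel plots the TMM-scaled CPM of 1 gene (vertical axis, linear from 0) in the 4 control libraries and the 5 libraries labelled knockout, with the symbol giving the replicate number, the line the mean and the bar the SD, cut at 0. Fat3 is near 0 in all controls and between 5.52 and 52.4 CPM in the others, and for Pcdh12 replicates 2 and 3 of the libraries labelled knockout sit far below the other 3.

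Per length of exon, the control endothelium held these transcripts at very different levels. Pcdh12 led with 115.7 ± 10.9 CPM per kb, at the 97.9th percentile of tested genes, followed by Dchs1 (28.9 ± 6.21 CPM per kb), Pcdh17 (21.2 ± 5.17), Fat4 (9.93 ± 0.738) and Pcdh1 (2.36 ± 0.375). Celsr2 (0.0554 ± 0.0280 CPM per kb), Fat1 (0.0395 ± 0.0286), Celsr1 (0.00777 ± 0.00261) and Fat3 (0.00256 ± 0.00147) followed at the lower end, below the 2nd percentile. In this order the ranges of Dchs1 and Pcdh17 and of Celsr2 and Fat1 overlapped, though the first of each pair was higher in 4 of 4 control libraries. The other neighbours did not overlap.

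In the libraries labelled knockout the order per length was Pcdh12, Pcdh17, Dchs1, Fat4, Pcdh1, Fat3, Fat1, Celsr1 and Celsr2. Pcdh17 (41.4 ± 8.16 CPM per kb) stood above Dchs1 (18.2 ± 2.47) in 5 of 5 libraries, the reverse of the controls. The ratio of Dchs1 to Pcdh17 per length was 1.38 ± 0.154 in controls and 0.451 ± 0.0840 in the libraries labelled knockout. Fat3, in the 9th place in controls, stood in the 6th here at 1.09 ± 0.845 CPM per kb, and its range overlapped that of Pcdh1 above it (1.44 ± 0.516). Neighbours whose ranges overlapped as well were Pcdh12 and Pcdh17, Fat1 and Celsr1, and Celsr1 and Celsr2.

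Fat4 encodes the mammalian FAT receptor closest to the fly Fat protein and is the binding partner of Dchs1. The gene (ENSMUSG00000046743) lies on GRCm38 chromosome 3 from 38886940 to 39011985 on the plus strand. In the 4 controls it was at 151.5, 176, 177 and 177 CPM, and in replicates 1 to 5 of the libraries labelled knockout at 81.1, 40.1, 97.5, 66.6 and 129.6 CPM. All 5 lay below all 4 controls, and replicate 5 came nearest to them. The means were 170.5 ± 12.7 and 83.0 ± 33.5 CPM, a log2 fold change of -1.04 ± 0.27 (SE), 2.05-fold lower. Its spread among the libraries labelled knockout was wide for its level. The coefficient of variation was 40.4%, against a median of 10.7% over 3680 genes within 2-fold of its mean, and 7.43% among the controls. The call of Fat4 ended in the fit without a count filter. Antisense genes overlap its exons and held 154 and 3 counts over all libraries, against 34926 for Fat4. How reads of the shared bases were assigned is not known, so these counts do not give the part of the antisense genes in the Fat4 level.

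Dchs1 encodes the large Dachsous cadherin that serves as the ligand of Fat4. The gene (ENSMUSG00000036862) lies on chromosome 7 from 105752990 to 105787654 on the minus strand. Controls 1 to 4 were at 297, 295, 265 and 419.8 CPM, and the libraries labelled knockout at 212, 183, 231, 164 and 217 CPM in the order of their replicates. The groups did not overlap, and control replicate 4 stood well above the other controls. The means were 319 ± 68.7 and 201 ± 27.3 CPM, a log2 fold change of -0.67 ± 0.15 (SE), 1.59-fold lower. Ligand and receptor thus both had lower means, and the ratio of Dchs1 to Fat4 per length was 2.91 ± 0.593 in controls and 4.25 ± 1.68 in the libraries labelled knockout, with overlapping ranges. Replicate 2 of the libraries labelled knockout, lowest for Fat4, had the highest of these ratios at 7.07. The coefficient of variation of Dchs1 there was 13.6%, against a median of 11.9% over 2023 genes of similar level, and 21.5% among the controls, against a median of 8.56%.

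Fat3 encodes a giant cadherin best known for shaping the dendrites of retinal amacrine neurons. The gene (ENSMUSG00000074505) lies on chromosome 9 from 15910189 to 16501285 on the minus strand. Controls 1 to 4 held 3, 1, 1 and 2 counts, and replicates 1 to 5 of the libraries labelled knockout held 804, 480, 2015, 150 and 465 counts. On the scaled level these were 0.0982, 0.0312, 0.0315 and 0.0591 CPM against 28.4, 14.8, 52.4, 5.52 and 15.5 CPM. Even the lowest of the libraries labelled knockout, replicate 4, lay far above the highest control. Over the pooled counts, 7 against 3914, the ratio of scaled rates was 458, with an exact binomial 95% interval of 222 to 1141 that covers counting error only. The fitted log2 fold change, which depends on the prior count of the fit because the controls are so low, was 8.64 ± 0.90 (SE), or 8.14 with replicates 2 and 3 (labelled knockout) left out. It was number 8 from the highest of all 14583 tested genes.

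The level that Fat3 reached differed widely between libraries, by 9.48-fold from replicate 4 to replicate 3. Its coefficient of variation there was 77.9%, against a median of 12.6% over 3887 genes of similar level. The pair that stood apart on the second principal component was split: replicate 3 was the highest for Fat3 and replicate 2 the 4th of 5. Of the marker sums of other cells, that of neutrophils was 7.90, 8.79, 21.3, 10.97 and 6.58 CPM in replicates 1 to 5 labelled knockout, and that of platelets 133, 131, 136, 63.4 and 80.7 CPM. Both were highest in replicate 3, where Fat3 was highest, and the platelet sum was lowest in replicate 4, where Fat3 was lowest. The neutrophil sum of replicate 4, however, was above those of replicates 1, 2 and 5. The platelet sums of replicates 1 to 3 were close together, while Fat3 was at 28.4, 14.8 and 52.4 CPM there. The stellate cell sum was 7.55, 23.5, 11.6, 5.78 and 5.44 CPM, and like those of cholangiocytes, smooth muscle and mesothelium it was highest in replicate 2. The part of any of these cells in the Fat3 level was not tested.

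Fat1, a widely expressed member that regulates the actin cytoskeleton, was scarce in all libraries. The gene (ENSMUSG00000070047) lies on chromosome 8 from 44935447 to 45052257 on the plus strand. Controls were at 0.818, 0.187, 0.315 and 1.15 CPM and the libraries labelled knockout at 2.61, 1.30, 3.43, 0.516 and 1.07 CPM. The groups overlapped, with replicates 1, 2 and 3 above every control and replicates 4 and 5 within their range. The log2 fold change was 1.53 ± 0.65 (SE) and did not pass the threshold, and it was 1.18 without replicates 2 and 3.

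The makeup of the FAT transcripts differed between the groups when compared per length. Fat4 supplied 99.6 ± 0.303% of the summed Fat1, Fat3 and Fat4 level in controls, and 80.6 ± 10.7% in the libraries labelled knockout. The Fat3 share was 0.0266 ± 0.0176% in controls and 17.5 ± 9.75% in the others, with a range of 6.17% to 29.2%. Fat4 remained the larger of the pair in every library, by 2.33-fold in replicate 3 and 15.1-fold in replicate 4. The sum of the 3 genes was 9.97 ± 0.729 CPM per kb in controls and 6.03 ± 2.38 CPM per kb in the libraries labelled knockout, and all 5 lay below the lowest control, 8.88 CPM per kb. Thus the Fat3 level that appeared was smaller than the Fat4 level that was missing from the mean.

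**Figure D2:**
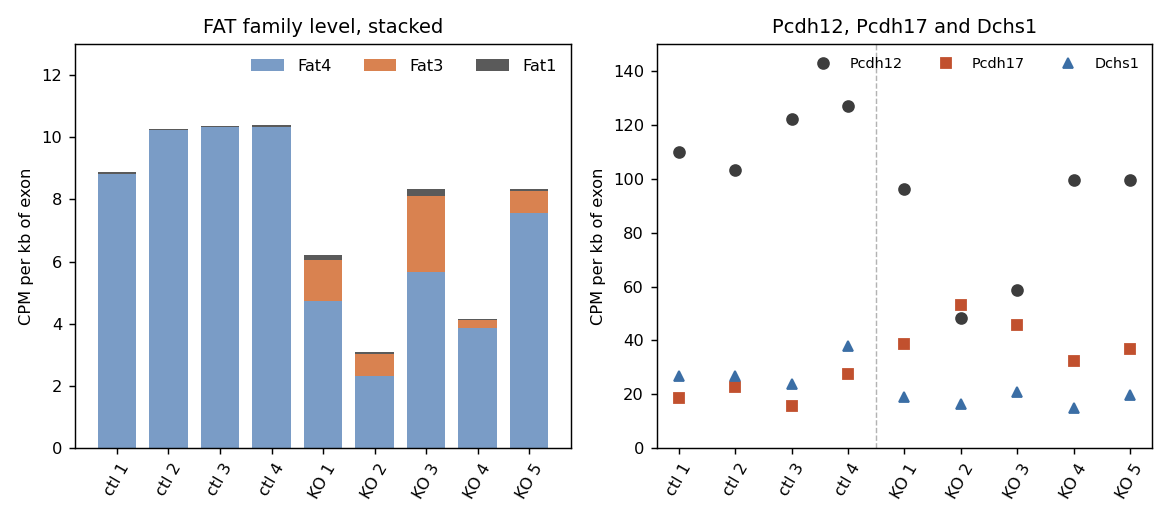
The left panel stacks Fat4, Fat3 and Fat1 in CPM per kb of exon (vertical axis) for each library, and the right panel plots Pcdh12, Pcdh17 and Dchs1 on the same unit, with controls to the left of the dashed line. Fat4 makes up nearly the whole bar in controls and Fat3 adds between 6.17% and 29.2% in the libraries labelled knockout, while Pcdh17 lies above Dchs1 in those 5 libraries and below it in the 4 controls.

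Celsr1 and Celsr2 encode receptors of the core planar polarity pathway, and Celsr1 is known for its part in forming lymphatic valves. Celsr1 (ENSMUSG00000016028, chromosome 15 from 85898929 to 86033777, minus strand) had 2, 4, 2 and 3 counts in the controls and 8, 49, 33, 3 and 1 in the libraries labelled knockout. It was left out of the fit, and its counts were high in replicates 2 and 3 only, with replicates 4 and 5 at the level of the controls. Replicate 2 also had the highest marker sums of all libraries for cholangiocytes (17.1 CPM) and mesothelium (33.9 CPM), both epithelial cell types. Its sums for stellate cells, smooth muscle, Kupffer cells and macrophages, and erythroid cells were the highest of all libraries as well. The part of any of these cells in the Celsr1 counts was not tested. In replicate 3 the cholangiocyte and mesothelium sums were 7.09 and 6.31 CPM, the second below all controls.

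Celsr2 (ENSMUSG00000068740, chromosome 3 from 108390851 to 108415552, minus strand) was at 0.884, 0.406, 0.315 and 0.945 CPM in the controls. In the libraries labelled knockout it was at 0.353, 0.370, 0.676, 0.1105 and 0.0334 CPM. Replicates 4 and 5 were lower than any control, with 3 and 1 counts, and the other 3 lay in the control range. The log2 fold change was -1.003 ± 0.642 (SE), not past the threshold, and -1.92 without replicates 2 and 3. Celsr2 differed by 20.2-fold between the highest and the lowest of the libraries labelled knockout, but these held only 26 counts and 1 count. Its coefficient of variation there was 81.9%, against a median of 47.0% over 1384 genes of similar level. Among the controls it was 50.6%, against a median of 34.2%.

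Pcdh12 encodes an endothelial protocadherin, also called VE-cadherin-2, that unlike VE-cadherin does not bind catenins. The gene (ENSMUSG00000024440) lies on chromosome 18 from 38267089 to 38284402 on the minus strand. Controls were at 666, 626, 741 and 769.6 CPM. Replicates 1, 4 and 5 of the libraries labelled knockout were at 582, 603 and 603 CPM, and replicates 2 and 3 at 292 and 356 CPM. All 5 lay below all 4 controls, but 3 of them only narrowly. The means were 701 ± 66.1 and 487 ± 151 CPM, a log2 fold change of -0.52 ± 0.22 (SE) that did not pass the threshold. Without replicates 2 and 3 the value was -0.23, 1.17-fold lower in place of 1.44-fold. Cdh5, which encodes VE-cadherin and was part of the sort, had a log2 fold change of -0.02 ± 0.11 (SE).

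Pcdh17 encodes a protocadherin studied mainly in the brain, where it gathers the WAVE actin regulators at contacts between axons. The gene (ENSMUSG00000035566) lies on chromosome 14 from 84443563 to 84539002 on the plus strand. Controls were at 241, 297, 204 and 358 CPM and the libraries labelled knockout at 504.6, 691, 594, 421 and 478 CPM. The groups did not overlap, and replicates 2 and 3, the lowest for Pcdh12, were the highest for Pcdh17. The means were 275 ± 67.2 and 538 ± 106 CPM, a log2 fold change of 0.97 ± 0.19 (SE), 1.96-fold higher, and 1.71-fold without replicates 2 and 3. Unlike Fat3, the gene was already at the 84.4th percentile of tested genes per length in controls.

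The gap between the 2 protocadherins was smaller in the libraries labelled knockout. The ratio of Pcdh12 to Pcdh17 per length ranged from 4.53 to 7.80 in controls and from 0.907 to 3.07 in the libraries labelled knockout. In replicate 2 alone Pcdh17 exceeded Pcdh12. The summed level of Pcdh1, Pcdh12 and Pcdh17 overlapped between the groups, at 139 ± 13.3 CPM per kb in controls and 123 ± 17.0 CPM per kb in the others.

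Pcdh1, a protocadherin described in airway epithelium and as a receptor for New World hantaviruses, was expressed at a lower level. The gene (ENSMUSG00000051375) lies on chromosome 18 from 38185914 to 38212053 on the minus strand. Controls were at 18.1, 19.1, 20.3 and 25.5 CPM and the libraries labelled knockout at 14.1, 19.9, 11.5, 8.47 and 9.58 CPM. Replicate 2 lay within the control range and the other 4 below it. The means were 20.7 ± 3.30 and 12.7 ± 4.54 CPM, a log2 fold change of -0.70 ± 0.24 (SE), 1.63-fold lower. This call was the least stable of the 5: it ended with a sex term, without a count filter, and when any single library other than replicate 2 of the libraries labelled knockout was left out.

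**Figure D3:**
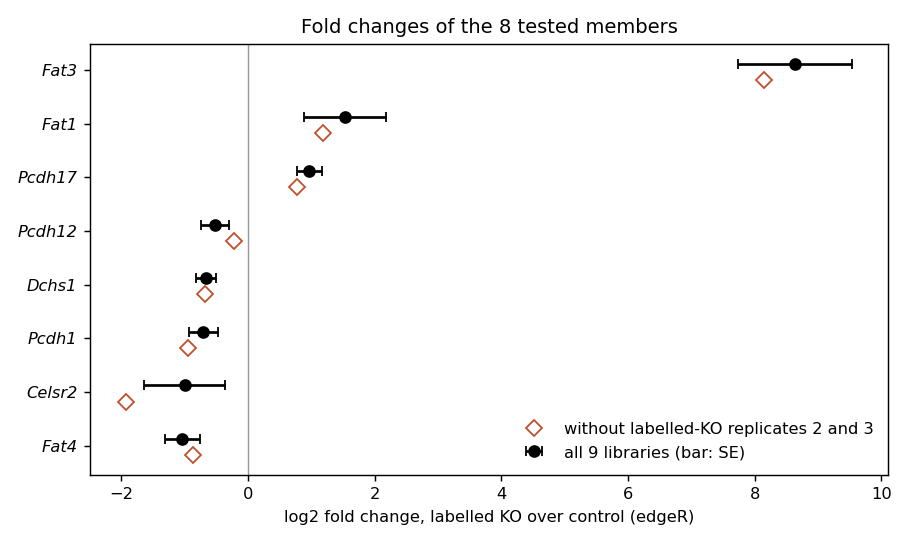
The log2 fold change of the libraries labelled knockout over control (horizontal axis) is plotted for the 8 tested genes, as filled points with SE from all 9 libraries and as open diamonds with replicates 2 and 3 (labelled knockout) left out. Fat3 stands at 8.64 and the others lie between -1.04 and 1.53, and the diamonds keep the direction of each gene.

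Among the libraries labelled knockout, replicate 3 was the highest for 4 of the 9 genes (Fat1, Fat3, Dchs1 and Celsr2) and replicate 4 the lowest for 5 (Fat1, Fat3, Dchs1, Pcdh1 and Pcdh17). Replicate 2 was the highest for Celsr1, Pcdh1 and Pcdh17 and the lowest for Fat4 and Pcdh12. Among the controls, replicate 4 was the highest for 6 genes and the lowest for 0. Its mesothelial (24.8 CPM), erythroid (28.2 CPM) and smooth muscle (1.68 CPM) marker sums were also the highest of the controls. Its hepatocyte (158 CPM), cholangiocyte (2.16 CPM) and lymphocyte (1.004 CPM) sums were the lowest of the controls, as were its endothelial and sinusoidal sums. The part of any of these cells in the values of control replicate 4 was not tested. A sex term, with sex read from Xist and Ddx3y counts, gave a test that the choice of genes did not use. Control replicate 3 and replicates 3, 4 and 5 labelled knockout were read as female and the others as male. Sex was thus not balanced between the groups. Replicate 3 labelled knockout, with 26914 Xist and 178 Ddx3y counts, was entered as female. Of the 8 genes, 0 passed an adjusted p of 0.05 between males and females in edgeR's quasi-likelihood test, where 0.0206% of all tested genes did. At an unadjusted p under 0.05 there was 1, Pcdh1, with a log2 difference of males over females of 0.49 (edgeR adjusted p = 0.729). No other tool was run for this term.

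For Fat3, Pcdh17, Fat4 and Pcdh12, the 3 genes of most similar pattern were taken by Pearson's r of log2 CPM over the 9 libraries, among 11404 named genes with a mean of at least 1 CPM. These libraries share the group difference and the sequencing, so the values only describe likeness. For Fat3 they were Bmp1 (r = 0.996), Spred2 (0.994) and Abtb2 (0.991). Within the 5 libraries labelled knockout alone they were Slc18a2, Thop1 and Nectin3 (0.999, 0.997 and 0.997). The highest of 11404 values over only 5 libraries can be this high without any link. Slc18a2 had a higher mean there than in controls (184 against 4.07 CPM). Thop1 (13.8 against 15.9 CPM) and Nectin3 (18.8 against 28.8 CPM) had lower means there, unlike Fat3. Bmp1, a procollagen-cleaving metalloprotease, was at 1.12 ± 0.237 CPM in controls and 320.5 ± 173 CPM in the others. For Pcdh17 they were Rrad, Azi2 and Wsb1 (0.987, 0.978 and 0.973), for Fat4 Plekhg1, Alms1 and Dysf (0.972, 0.961 and 0.960), and for Pcdh12 Cuta, Ccn4 and Gpr155 (0.976, 0.974 and 0.974).

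The rest of these families was mostly too low to test in these cells. Of Fat2, Dchs2 and Celsr3, 0 passed the filter on low counts. Of 21 other non-clustered protocadherins and cadherin-related genes 7 passed it, and 2 of these rose and 0 fell. That is 2 of 7 past the threshold, beside 29.3% of all tested genes. The median log2 fold change of the 7 was 1.05, beside 0.01 over all tested genes, and 7 of 7 were above 0. Pcdh8, a protocadherin of neurons and early mesoderm, rose from 0.0952 ± 0.0721 to 4.16 ± 3.14 CPM, with all 5 libraries labelled knockout above all controls (log2 fold change 5.40 ± 0.87, SE, edgeR adjusted p = 0.00170). It was highest in replicates 4 and 5, at 8.14 and 6.71 CPM, the 2 in which Celsr1 and Celsr2 were lowest or next to lowest. Cdhr4 rose from 2.51 ± 0.998 to 5.19 ± 1.16 CPM (edgeR adjusted p = 0.0226), a call that ended without control replicate 1 or 3.

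The clustered protocadherins lie in tandem arrays, and those of the alpha and gamma arrays share their last exons, so reads could be split between neighbours. Of 56 such genes 43 were tested. Among these 2 were higher and 0 lower, beside 14.5% higher and 14.8% lower over all tested genes. Their median log2 fold change was -0.0031, near the 0.01 of all tested genes. Pcdhgc3, the most abundant of them, rose from 212 ± 15.4 to 353 ± 58.3 CPM (log2 0.74 ± 0.13, SE, edgeR adjusted p = 0.00237). Its neighbour Pcdhgc5 was at 1.18 ± 0.523 and 2.42 ± 0.585 CPM and lost its call when control replicate 1, 2 or 3 or replicate 1, 2 or 3 labelled knockout was left out, alone or, for the last 2, together. Among 12 tested classical cadherins and catenins 0 rose and 2 fell, beside the same shares over all tested genes, with a median of 0.01. Jup, the junctional plakoglobin, fell from 246 ± 51.6 to 96.7 ± 34.2 CPM (edgeR adjusted p = 0.00403), and Ctnnb1, beta-catenin, from 882 ± 52.5 to 684 ± 61.9 CPM (edgeR adjusted p = 0.0210), a call that ended without control replicate 3 or 4.

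Partners of Fat4, Dchs1 and Fat1 changed in both directions. Of 18 tested, 8 rose and 4 fell, with a median of 0.36. The shares over all tested genes, 14.5% higher and 14.8% lower, are the background for this count and for those of the other pathway lists below. Dlg5, a scaffold protein, rose from 84.6 ± 4.17 to 158 ± 17.4 CPM (edgeR adjusted p = 1.34e-04) and the focal adhesion protein gene Zyx from 167 ± 9.46 to 427 ± 72.9 CPM (adjusted p = 1.04e-04). Mpdz, a multi-PDZ scaffold, fell from 74.3 ± 5.13 to 36.6 ± 3.83 CPM (edgeR adjusted p = 5.88e-05), and Homer3 fell from 119 ± 8.62 to 83.2 ± 6.26 CPM. The planar polarity list, in which Celsr proteins act, had 3 of 21 tested genes higher and 2 lower and a median of 0.02, so that 5 of 21 passed, beside 29.3% of all tested genes. The Wnt receptor genes Ryk (83.8 ± 4.38 to 123 ± 10.01 CPM) and Ror1 (0.268 ± 0.136 to 0.755 ± 0.347 CPM) and the ubiquitin ligase gene Smurf1 rose, and Dvl2 fell. With replicates 2 and 3 (labelled knockout) left out, 4 genes of that list were lower and the call of Ror1 ended. It also ended when control replicate 2, 3 or 4, or either of those 2 replicates, was the one left out, and the count of lower genes was 1 for 5 of the 9 single libraries left out: control replicates 2, 3 and 4 and the replicates 1 and 5 labelled knockout.

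The Hippo kinase pathway, to which FAT proteins are linked, had 6 of 25 tested genes higher and 3 lower, with a median of 0.09. Tead3 rose from 0.133 ± 0.0827 to 1.51 ± 0.918 CPM, while Tead2, another DNA-binding partner of YAP, fell from 50.1 ± 10.7 to 18.6 ± 6.48 CPM, and Taok2 and Amot fell by 0.67 and 0.69 on the log2 scale. Of 16 tested YAP and TAZ target genes 6 rose and 3 fell, with a median of 0.84. Rbms3 rose from 5.96 ± 1.02 to 45.2 ± 14.2 CPM and Ccn2 from 172 ± 48.4 to 742 ± 288 CPM, Nt5e had a log2 fold change of 6.45 ± 0.80 (SE), and Nuak2 fell from 67.7 ± 3.60 to 30.1 ± 7.81 CPM. Of 17 tested genes for the WAVE complex and other effectors of protocadherins 3 rose and 5 fell, with a median of 0.09. The WAVE subunit gene Abi1 rose from 174 ± 11.9 to 296 ± 44.1 CPM and the subunit gene Nckap1 fell from 380.1 ± 23.1 to 278 ± 11.1 CPM. The kinase gene Fyn fell from 687 ± 14.1 to 298 ± 29.8 CPM and Ptk2 by 0.41 on the log2 scale. The number of higher genes in that list was 1 rather than 3 when any of the same 5 libraries was left out.

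**Figure D4:**
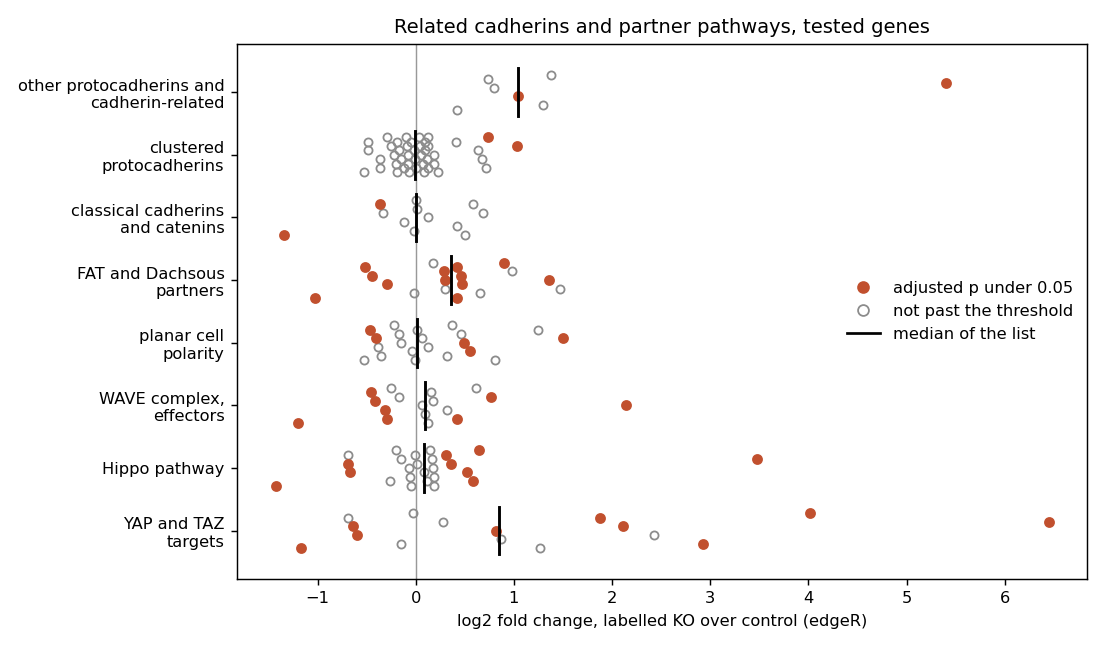
Each point is the log2 fold change (horizontal axis) of 1 tested gene in 8 lists of related cadherins and partner pathways, filled where the edgeR adjusted p was under 0.05, and the vertical line is the median of the list. The clustered protocadherins lie close to 0, and the lists for partners, Hippo and YAP and TAZ targets hold filled points on both sides.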

How the data were processed

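The deposited file is a matrix of unnormalised counts made by the authors, with 9 columns matched to the samples by their descriptions and 0 columns left unused. The submitters' processing notes list GRCm38 as the build, STAR 2.7.6a and FastQC 0.11.5, and per the labels' protocols polyadenylated RNA was made into unstranded or stranded TruSeq libraries. Which program counted the reads, and whether by strand, is not given in the sources used here, so reads of overlapping genes on opposite strands may have been merged. Symbols, coordinates and exon lengths came from GENCODE M21 (GRCm38), which named 52403 identifiers.

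Genes were filtered with filterByExpr (minimum count 10, minimum total 15) and scaled by TMM. The test was edgeR's quasi-likelihood test (version 4.0.16, R 4.3.3; glmQLFit, robust, and glmQLFTest, no covariate), with Benjamini-Hochberg adjustment over 14583 genes and a threshold of 0.05. The SE of a log2 fold change is its size over the square root of F. CPM per kb divides by the union of annotated exons. Alternatives were 3 other scalings, 2 other filters, DESeq2 1.42.0, limma-voom (limma 3.58.1), glmTreat, a replicate block, a sex term and leaving out libraries. Library pairs within a group differed by at least 20.3 in chi-square per degree of freedom, so none was counted as a copy. Since nothing ties libraries to separate animals, p-values reflect the variation among the libraries alone, which may be technical.

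The 9 genes and all lists were chosen with earlier results of these data known. Named from each list were up to 4 called genes with the smallest p. Genes of similar pattern were the 3 with the highest Pearson r, leaving out predicted and RIKEN names. Of the list symbols, 1 had no match (Pals1).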

Additional observations from a re-analysis of the deposited data

Results flagged for a closer look

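Of 74 groups of libraries checked, for 37 genes in controls and in the libraries labelled knockout, 1 had a library far from the others. Fat4 in control replicate 1 was at 151.5 CPM, below 175.9 CPM, the next lowest control, a gap that took up most of the range of the 4 controls. The gap was 0.940 of that range, and the limit for a flag was 0.829. By chance about 1 of 20 groups passes that limit, so flags are expected among 74 groups.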

How the results depend on the processing

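The direction of every single-gene fold change checked (36 genes, the 8 tested members included) held under all alternatives run for it, and 649 of 713 such values kept their side of the threshold. Of the 64 that did not, 27 came from glmTreat, which asks for a change of more than 2-fold and so calls fewer genes by construction: 289 genes higher and 213 lower, and among the members 1 higher and 0 lower. Without a count filter 1 member was called lower in place of 3, and Fat4 and Pcdh1 lost their calls, with 27053 genes tested. Leaving out 1 library gave 1495 to 1981 genes higher and 1591 to 2040 lower, with 2 members higher each time and 2 to 3 lower. The replicate numbers were also tried as a pairing: with a replicate block 1296 genes were higher and 1375 lower, and 2 members were higher and 1 lower, Dchs1 and Pcdh1 losing their calls. The deviations of same-numbered libraries from their group means correlated at 0.291, -0.0308, -0.0183 and -0.333, so the libraries share only a number. Fat3, Fat1 and both Celsr genes rest on few control counts, which limits the precision of their fold changes.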

Other observations

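For the other 4 tested members, the genes of most similar pattern over the 9 libraries were Fastkd2, Cacybp and Lcp2 for Dchs1 (r = 0.981, 0.970 and 0.963) and Mn1, Hmgn3 and Fam131a for Pcdh1 (0.981, 0.959 and 0.957). They were Kif2a, Csnk1g3 and Rps6kc1 for Fat1 (0.940, 0.933 and 0.928) and Tbc1d16, Cdk4 and Psmc3ip for Celsr2 (0.952, 0.951 and 0.948). Lcp2, an adaptor protein of blood cells and platelets, was at 68.4 ± 11.8 CPM in controls and 45.5 ± 5.80 CPM in the libraries labelled knockout. Mn1, a transcriptional coregulator, was at 9.58 ± 3.41 and 3.62 ± 2.36 CPM. The upstream windows of Fat1 and Celsr2 held 4 and 1 GGAA cores. The RefSeq start used for Fat1, at 44950208, lies inside the annotated gene, which starts at 44935447.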
